A study of Mus musculus with 4 samples.

Results

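Proteoglycans are proteins that carry long sulfated sugar chains, and 10 genes for their core proteins were followed in pituitary cells. The cells were the 2 pituitary types that express pro-opiomelanocortin (POMC). The genes were brevican (Bcan), neurocan (Ncan) and versican (Vcan) of the hyaluronan-binding family, endocan (Esm1), the glypicans Gpc1, Gpc3, Gpc4 and Gpc6 and the syndecans Sdc2 and Sdc3. They were matched by gene symbol, and they were chosen because Bcan and Esm1 were high in melanotropes. Their melanotrope and corticotrope levels are therefore given as a description with no test. The 10 genes had 16 RefSeq transcripts, of 33072 transcripts of 24063 genes in the deposited table.

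RNA-seq was done on 2 libraries of melanotropes, the POMC cells of the intermediate lobe, and 2 libraries of corticotropes, the POMC cells of the anterior lobe. Both cell types were sorted by GFP after dissection of the lobes from mice (strain C57B6) with the POMC-EGFP transgene, so that all 4 libraries carry the same transgene and differ in lobe and cell type. The GFP gate follows the Pomc promoter alone, and the labels give neither age, sex nor the number of mice behind a library. They are silent on whether the replicates are independent sorts or mice, and p-values then measure the spread of these libraries alone, which may be technical. Values are FPKM, fragments scaled to transcript length and library size, rescaled between libraries unless called deposited, with n = 2 per cell type.

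The core protein sets where the chains go. Brevican, neurocan and versican are secreted, bind hyaluronan and carry chondroitin sulfate, and they build the matrix around neurons and glia. Glypicans are held on the cell surface by a lipid anchor and syndecans by a transmembrane segment, and both carry mainly heparan sulfate, through which they bind growth factors, Wnts and Hedgehog proteins. Endocan is a small secreted proteoglycan with a dermatan sulfate chain, best known from endothelium.

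The libraries matched their labels in the genes that define each cell type. All 5 melanotrope markers, Pax7, Pcsk2, Drd2, Oacyl and Gulo, were higher in melanotropes and all 5 corticotrope markers, Crhr1, Avpr1b, Nr3c1, Neurod1 and Pcsk1, were lower (limma, adjusted over all genes). The corticotrope mean of each melanotrope marker was 13.1% to 15.6% of its melanotrope mean. Markers of other anterior lobe hormone cells, Gh, Prl and Cga among them, summed to 14.5 and 63.6 FPKM in melanotropes, against 5809 and 5660 FPKM in corticotropes, and 12 of 12 tested were lower. Pomc took 49.7% and 50.9% of the summed FPKM in melanotropes and 27.8% and 27.2% in corticotropes, so columns of nearly equal sum push all other genes down in melanotropes. Rescaling brought the median log2 difference of the genes tested from -0.42 to 0.01. In sorted bulk samples, fewer cells of a type and less RNA per cell cannot be told apart. The part of other anterior lobe cells in genes higher in corticotropes, members and pathway genes alike, was not tested.

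**Figure D1:**
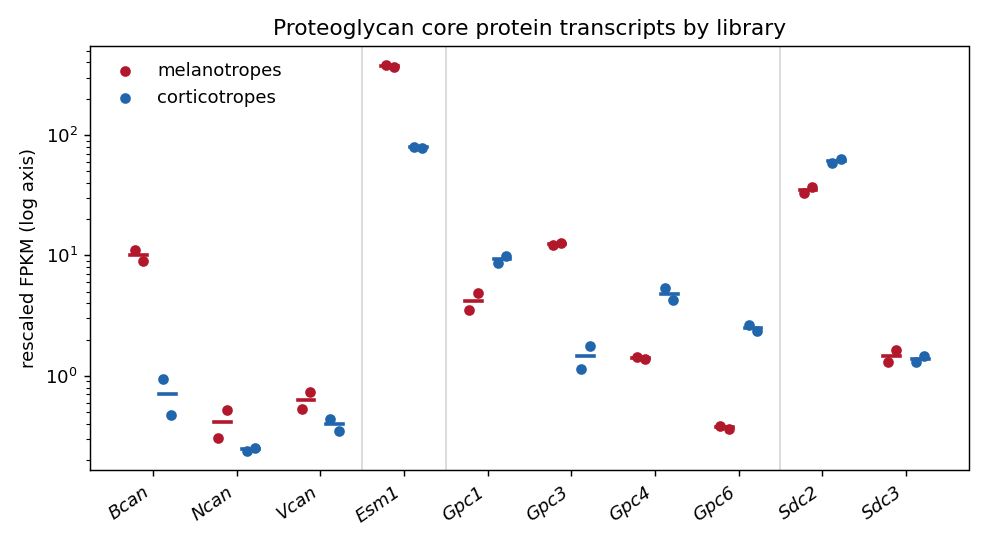
Rescaled FPKM (log axis) of the longest transcript of each of the 10 genes, with 1 point per library and a bar at the mean of the 2 libraries of melanotropes (left, red) and corticotropes (right, blue). Bcan, Esm1 and Gpc3 sit higher in melanotropes, Gpc1, Gpc4, Gpc6 and Sdc2 lower, and the points of Sdc3 overlap.

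Esm1 and Bcan, which chose the set, stood at very different levels. Esm1 (chromosome 13, 113209659 to 113218104, plus strand, mm10) was at 379.6 and 365 FPKM in melanotropes, against 79.5 and 78.4 FPKM in corticotropes. Replicates lay close together and the cell types far apart, with a log2 difference of 2.22 on the log2(FPKM + 1) scale (SE 0.03, n = 2 each). Its melanotrope mean had rank 59 of 24063 genes, and its corticotrope mean of 79.0 FPKM had rank 460. Bcan (chromosome 3, 87987531 to 88000356, minus strand) was at 11.1 and 9.03 FPKM in melanotropes, against 0.95 and 0.47 FPKM in corticotropes. The cell types did not overlap, although the corticotrope replicates differed from each other by more than the melanotrope ones in relative terms, and the log2 difference was 2.70 (SE 0.24, n = 2 each). The corticotrope mean of Bcan was 7.05% of its melanotrope mean, below the range of the 5 melanotrope markers in the same libraries, and that of Esm1 was 21.2%, above that range.

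Esm1 is widely used as an endothelial gene, and endothelial transcripts were low in these libraries. The 11 endothelial markers, Pecam1, Cdh5 and Kdr among them, summed to 9.81 and 6.99 FPKM in melanotropes, against 17.8 and 27.5 FPKM in corticotropes. Of these markers 0 were higher in melanotropes, 10 had both melanotrope libraries below both corticotrope libraries and 1, Flt1, overlapped. Of all genes tested, 34.4% were lower in this way, and 6 of these 11 markers were among the genes tested. No endothelial marker was at 0 in both libraries of a cell type. The cell type with more Esm1 had less of the endothelial markers, and the part of endothelial cells in the Esm1 values was not tested. For Bcan, the markers of glia and the oligodendrocyte lineage summed to 19.8 and 21.8 FPKM in melanotropes, against 6.12 and 6.85 FPKM in corticotropes, of which Slc1a3, a glutamate transporter of astrocytes, made up 11.1 and 14.1 against 1.55 and 2.09 FPKM. Mbp, a protein of myelin, was at 5.42 and 5.03 FPKM in melanotropes, against 1.70 and 1.72 FPKM in corticotropes, and these 2 were the ones called higher of 3 tested (limma adjusted p = 0.000181 for Slc1a3 and 0.000280 for Mbp). Olig1, a factor of the oligodendrocyte lineage, was at 0.295 and 0.236 FPKM in melanotropes, against 0.0082 and 0.0087 FPKM in corticotropes. The lineage factors Sox10 (0.0907 and 0.0620 against 0.0573 and 0.0348 FPKM) and Olig2 (0.0227 and 0.0248 FPKM in melanotropes, listed at 0 in both corticotrope libraries) were near 0. Of the 11 glial markers 6 were higher without overlap, 2 lower and 3 overlapped, against 36% higher and 34.4% lower of all genes tested. Only 3 of these 11 were among the genes tested, so the shares come from genes at higher levels. The part of glial cells in the Bcan difference was not tested.

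The promoters of the 2 genes differed in base composition. The 250 bases before the annotated start are shown from RefSeq on GRCm38.p6, 5′ to 3′ on the gene's strand, because these genes had the largest differences among the members that are secreted. Capitals mark matches on either strand to any of 5 motifs, and no matches overlapped in the windows shown. The box of TATA-binding protein was searched as the letters TATAAA. The GC box bound by Sp factors was searched as GGGCGG and the common core of homeobox factors as TAATTA. The core bound by Pitx factors was searched as TAATCC and the site of T-box factors as TCACACC.
Bcan, chr3:88000357-88000606, minus strand: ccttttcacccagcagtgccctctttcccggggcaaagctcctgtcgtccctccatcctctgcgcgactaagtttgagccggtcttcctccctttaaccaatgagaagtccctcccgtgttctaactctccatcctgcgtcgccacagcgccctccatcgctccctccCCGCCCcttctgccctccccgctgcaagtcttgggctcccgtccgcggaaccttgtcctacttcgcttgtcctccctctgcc
Esm1, chr13:113209409-113209658, plus strand: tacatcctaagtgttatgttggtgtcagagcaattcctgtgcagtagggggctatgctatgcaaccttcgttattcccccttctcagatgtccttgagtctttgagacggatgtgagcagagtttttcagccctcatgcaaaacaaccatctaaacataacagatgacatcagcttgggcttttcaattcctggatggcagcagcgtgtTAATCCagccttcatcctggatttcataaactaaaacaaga
Bcan had 16 CpG and 62.0% GC, with 1 GC box 82 to 77 bases before the start on the reverse strand. Esm1 had 3 CpG and 44.0% GC, with no GC box and 1 Pitx core 41 to 36 bases before the start on the forward strand. Over 32851 promoters the median was 6.0 CpG, and 74.6% had fewer CpG than Bcan and 29.0% fewer than Esm1. A GC box stood in 32.7% of all these windows and a Pitx core in 6.25%. Of the members, 7 were matched in the table, 6 of them held a GC box and 1 (Esm1) a Pitx core. In 1 (Ncan) the letters TATAAA stood on the reverse strand, 11 to 6 bases before the start. Of the 7, 0 held TAATTA or TCACACC, which stood in 4.84% and 3.33% of all windows (TATAAA on either strand in 12.4%).

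Bcan had a long and a short transcript in the table, and both were higher in melanotropes. Brevican is known from rat to exist as a secreted form and as a shorter, lipid-anchored form. The short transcript was at 10.5 and 7.93 FPKM in melanotropes, against 0.958 and 0.495 FPKM in corticotropes. Most exons are shared and the same reads entered both values, so their levels cannot be added. The long form has 6 exons of its own, 1123 bases in GENCODE M21, and the short form 541 bases of its own, where its last exon runs on. The long form's signal exceeded the short form's by 8.05 and 8.15 FPKM times kilobase in melanotropes, and by 0.525 and 0.201 in corticotropes. With rounding of the table's values taken off, and even with no reads on the short form's own bases, these exons of the long form carried at least 7.14 and 7.23 FPKM in melanotropes, at least 64.4% and 79.96% of the long form's own level. In corticotropes the least values were 0.446 and 0.156 FPKM, 46.8% and 32.9% of the long form's level, from an excess of only 74 and 53 reads. The long form's own exons were thus covered in all 4 libraries, and how much of the short form was present was not determined.

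**Figure D2:**
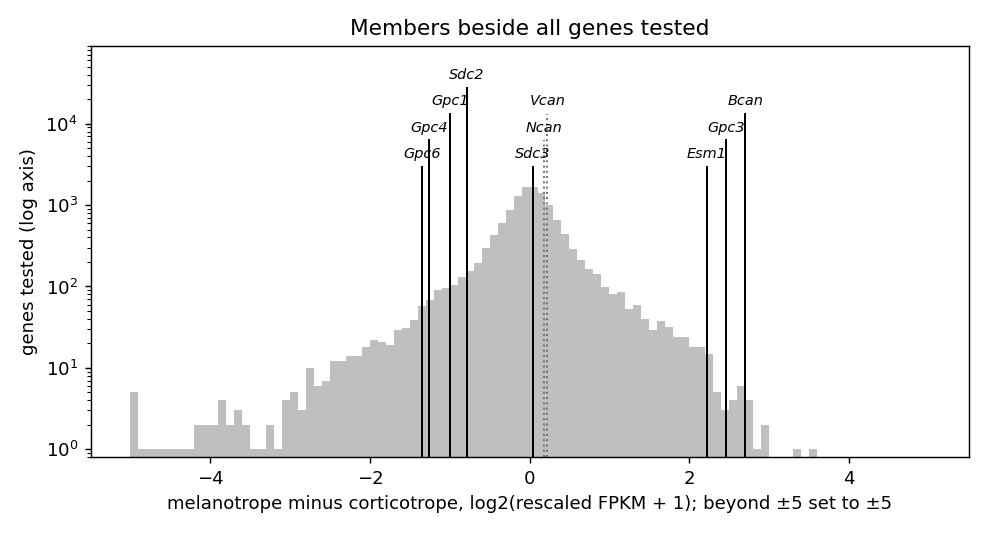
Distribution of the melanotrope minus corticotrope difference in log2(rescaled FPKM + 1) over the 13043 genes tested (grey, log count axis), with lines at the 10 members; dotted lines mark Ncan and Vcan, which did not pass the expression filter. Bcan at 2.70, Gpc3 at 2.47 and Esm1 at 2.22 lie far to the right, and Gpc6, Gpc4, Gpc1 and Sdc2 between -1.35 and -0.78.

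Neurocan and versican, the other hyaluronan-binding members, were scarce in both cell types. Ncan (chromosome 8, 70093085 to 70120844) was at 0.306 and 0.52 FPKM in melanotropes, against 0.237 and 0.252 FPKM in corticotropes. Vcan (chromosome 13, 89655310 to 89742512) was at 0.533 and 0.731 FPKM in melanotropes, against 0.442 and 0.348 FPKM in corticotropes. Both genes had their melanotrope libraries above their corticotrope libraries by a small margin (log2 differences 0.18, SE 0.11, and 0.22, SE 0.10), but on the deposited scale the groups overlapped for each. Neither reached 1 FPKM in any library, so they were the 2 of 10 members that did not pass the expression filter. Behind these low values stood an estimated 239 to 703 reads a library for Ncan and 772 to 1716 for Vcan. In the authors' deposited table, the log2 fold change was the same 2.35 for Ncan and for 3 of the Vcan transcripts, a value that 191 rows of the table share, although their FPKM differ. In the authors' deposited table it was 3.20 for the V1 transcript and 0 for the shortest Vcan transcript.

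Versican is made in 4 main forms that differ in the exons to which chondroitin sulfate is attached. V0 has both the alpha exon (exon 7, chromosome 13, 89702918 to 89705797 on GRCm38, GENCODE M21) and the beta exon (exon 8, 89688285 to 89693501), V1 has beta, V2 has alpha and V3 has neither. Since the table counts each form over its own exons, the signal of an exon was read as the difference between forms with and without it. The alpha exon was at 0.496 and 0.649 FPKM in melanotropes, against 0.334 and 0.348 FPKM in corticotropes. The beta exon was at 0.596 and 0.851 FPKM in melanotropes, against 0.544 and 0.408 FPKM in corticotropes. Exons common to all 4 forms were at 0.488 and 0.632 FPKM in melanotropes, against 0.401 and 0.269 FPKM in corticotropes. Both attachment exons were thus covered in all 4 libraries, and the beta exon lay above the alpha exon in each.

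The ratio of beta to alpha signal did not separate the cell types. It was 1.202 and 1.31 in melanotropes, against 1.63 and 1.17 in corticotropes, and the corticotrope libraries enclosed the melanotrope ones (mean difference -0.145, exact two-sided permutation test, p = 1.0, n = 2 each, of which the smallest possible is 0.333). The ratio of alpha to common exons was 1.02 and 1.03 in melanotropes, against 0.832 and 1.29 in corticotropes (exact permutation p = 1.0). That of beta to common exons was 1.22 and 1.35 in melanotropes, against 1.36 and 1.51 in corticotropes (exact permutation p = 0.333, the smallest this design can give). The alpha exon rested on an estimated 135 to 353 reads a library and the beta exon on 399 to 839. A preference of one cell type for a form was not detectable with these libraries. The shortest Vcan transcript, which covers the start of the gene only, was at 0.295 and 0.322 FPKM in melanotropes, against 0.213 and 0.165 FPKM in corticotropes.

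**Figure D3:**
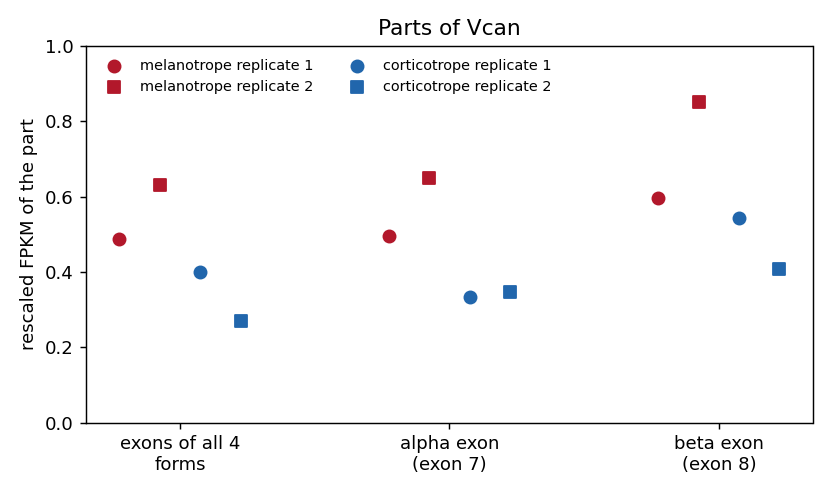
Rescaled FPKM of the exons common to the 4 main Vcan forms, of the alpha exon and of the beta exon, with 1 point per library (red melanotropes, blue corticotropes; circle replicate 1, square replicate 2). The beta exon lies above the alpha exon in each library, at 0.596 and 0.851 FPKM in melanotropes and 0.544 and 0.408 FPKM in corticotropes.

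The glypicans, which bind Hedgehog, Wnt and fibroblast growth factors at the cell surface, went in opposite directions. Gpc3 (chromosome X, 52272427 to 52613974, minus strand), known as a binder of Hedgehog and Wnt proteins and, in humans, as the gene of an overgrowth syndrome, was at 12.3 and 12.6 FPKM in melanotropes, against 1.15 and 1.76 FPKM in corticotropes. Both melanotrope libraries lay far above both corticotrope libraries, with a log2 difference of 2.47 (SE 0.18, n = 2 each). Gpc4 (chromosome X, 52053018 to 52164923, minus strand), a close relative of Gpc6, was at 1.43 and 1.38 FPKM in melanotropes, against 5.35 and 4.23 FPKM in corticotropes, with a log2 difference of -1.26 (SE 0.14). Here the corticotrope libraries were the high ones, again without overlap. The 2 genes lie 107.5 kb apart on the same strand with no other gene of the table between them.

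The promoters of this tandem pair are shown because the neighbours differ in direction, with the same marks as above.
Gpc3, chrX:52613975-52614224, minus strand: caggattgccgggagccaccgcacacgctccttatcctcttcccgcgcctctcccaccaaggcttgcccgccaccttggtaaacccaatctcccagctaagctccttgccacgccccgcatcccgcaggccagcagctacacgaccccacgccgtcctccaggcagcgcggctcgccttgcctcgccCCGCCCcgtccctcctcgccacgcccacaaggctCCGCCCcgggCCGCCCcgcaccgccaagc
Gpc4, chrX:52164924-52165173, minus strand: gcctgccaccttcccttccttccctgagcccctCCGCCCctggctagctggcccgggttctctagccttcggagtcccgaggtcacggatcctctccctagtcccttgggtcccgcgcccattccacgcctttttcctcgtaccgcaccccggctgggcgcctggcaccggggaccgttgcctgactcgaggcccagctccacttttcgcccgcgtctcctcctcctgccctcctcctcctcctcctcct
Both were rich in CpG, with 25 in Gpc3 and 18 in Gpc4, and 89.3% and 78.3% of all promoters had fewer. Gpc3 held 3 GC boxes, at 63 to 58, 29 to 24 and 19 to 14 bases before the start, and Gpc4 held 1, at 217 to 212 bases. None of the other 4 motifs stood in either window.

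Gpc1 and Gpc6 were lower in melanotropes. Gpc1 (chromosome 1, 92831686 to 92860196), the main glypican of neurons, was at 3.53 and 4.86 FPKM in melanotropes, against 8.63 and 9.89 FPKM in corticotropes (log2 difference -0.99, SE 0.21). The groups were apart, with the melanotrope replicates the more spread in relative terms. Gpc6 (chromosome 14, 116925297 to 117979529), a glypican known in mouse for synapse formation and bone growth, was at 0.386 and 0.359 FPKM in melanotropes, against 2.64 and 2.35 FPKM in corticotropes (log2 difference -1.35, SE 0.06). The melanotrope mean of Gpc6 was 14.9% of its corticotrope mean, and the second Gpc6 transcript had the same melanotrope values and 2.66 and 2.36 FPKM in corticotropes.

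The glypicans outside the set were read beside these. Gpc5 (chromosome 14, 115092215 to 116525192), the nearest relative of Gpc3 and the neighbour of Gpc6 at 400.1 kb on the same strand, was at 0.0340 and 0.0248 FPKM in melanotropes, against 16.6 and 18.3 FPKM in corticotropes. The melanotrope values rest on an estimated 19 and 13 reads, against 6696 and 13931 reads in corticotropes. It was called lower with a log2 difference of -4.16 (limma, SE 0.09, adjusted p = 1.43e-05), and it was not tested without either corticotrope library because too few libraries reached 1 FPKM. Gpc2, a glypican of developing neurons, was at 0.567 and 0.545 FPKM in melanotropes, against 1.12 and 1.03 FPKM in corticotropes, and was called lower (limma adjusted p = 0.0199). Gpc2 passed the filter only through its corticotrope libraries, which stood just above 1 FPKM. Of all 6 glypicans, Gpc3 was thus the 1 with the higher level in melanotropes, and 5 stood lower there under the rescaled values. The 5 lower ones had the same direction as several marker lists. Lower in melanotropes without overlap were 5 of 5 corticotrope markers and 13 of 13 markers of other anterior lobe hormone cells. So were 10 of 11 endothelial markers, against 34.4% of all genes tested. The parts of these cell types in the glypican values were not tested.

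**Figure D4:**
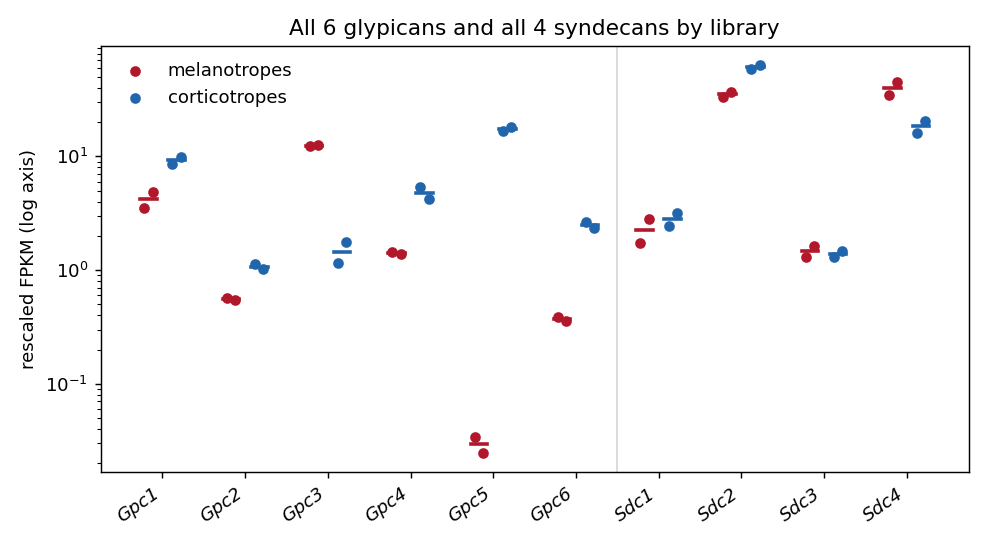
Rescaled FPKM (log axis) of all 6 glypicans and all 4 syndecans, with 1 point per library and a bar at the mean of 2 libraries of melanotropes (left, red) and corticotropes (right, blue). Gpc3 is the glypican with the higher level in melanotropes, Gpc5 is at 0.0340 and 0.0248 FPKM there, and the leading syndecans are Sdc4 in melanotropes and Sdc2 in corticotropes.

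Among syndecans, Sdc2 was abundant in both cell types and Sdc3 was scarce. Sdc2 (chromosome 15, 32920723 to 33034721), a transmembrane heparan sulfate proteoglycan that in neurons takes part in spine formation, was at 33.0 and 37.2 FPKM in melanotropes, against 58.6 and 63.2 FPKM in corticotropes. The groups were apart by more than the spread of either (log2 difference -0.78, SE 0.10). Sdc3 (chromosome 4, 130792537 to 130826318), known as the neural syndecan and for its role in feeding in mice, was at 1.30 and 1.64 FPKM in melanotropes, against 1.31 and 1.47 FPKM in corticotropes, and the libraries overlapped (log2 difference 0.05, SE 0.11). On the deposited scale both melanotrope libraries of Sdc3 lay below both corticotrope libraries, so the rescaling decides its side. Of the syndecans outside the set, Sdc4, a focal adhesion syndecan, was higher at 34.4 and 45.5 FPKM in melanotropes, against 16.2 and 20.5 FPKM in corticotropes (limma adjusted p = 0.00408), and Sdc1 overlapped at 1.72 and 2.80 against 2.46 and 3.20 FPKM.

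The 10 members split without a common direction. With rescaled values 5 had both melanotrope libraries above both corticotrope libraries, 4 had both below and 1 overlapped, and the median log2 difference was 0.11. Over the 13043 genes tested, 36% were higher without overlap and 34.4% lower, and the median was 0.01. The same 5 and 4 genes stood apart with upper quartile scaling and with equal sums of all transcripts but Pomc, and on the deposited scale 3 were higher, 5 lower and 2 overlapped. Since the set was chosen on this contrast, nothing is read from these shares. In the authors' deposited table the log2 fold changes were 4.0 for the long Bcan transcript, 2.96 for Gpc3 and 2.23 for Esm1, and -4.61 for Gpc6, -2.13 for Gpc4, -1.16 for Gpc1 and -0.80 for Sdc2.

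The order of the levels changed between the cell types. In melanotropes it ran Esm1, Sdc2, Gpc3, Bcan, Gpc1, Sdc3, Gpc4, Vcan, Ncan and Gpc6, where Sdc3 and Gpc4 overlapped, as did Ncan and Gpc6. In corticotropes it ran Esm1, Sdc2, Gpc1, Gpc4, Gpc6, Gpc3, Sdc3, Bcan, Vcan and Ncan, where Gpc3 and Sdc3 overlapped. Every other pair of neighbours in these orders was separate over its libraries. Esm1 led Sdc2 by a wide margin in melanotropes, at means of 372.5 and 35.1 FPKM, and by a small one in corticotropes, at 79.0 and 60.9 FPKM. Bcan was number 4 of 10 in melanotropes and number 8 in corticotropes, and Gpc6 number 10 in melanotropes and number 5 in corticotropes.

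Genes with profiles most like those of Bcan and Esm1 were taken by the distance between centred log2(FPKM + 1) profiles over the 4 libraries. For Bcan these were Pcsk2os2 (distance 0.0668), Megf11 (0.0810), Pcsk2os1 (0.0897) and Pcsk2 (0.212). Both antisense genes overlap Pcsk2, no strand setting is stated, and their reads cannot be told from those of Pcsk2. For Esm1 they were Crtac1 (0.0713), Tmem163 (0.0775), the somatostatin receptor gene Sstr1 (0.0776) and Sh2d5 (0.0842). Crtac1, a secreted matrix protein of cartilage and brain, was at 19.3 and 19.1 FPKM in melanotropes, against 3.13 and 3.15 FPKM in corticotropes. With 4 libraries, any gene that differs between the cell types by a like amount falls near, so likeness here is a description of size and spread.

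The rest of the pathway was read in 7 lists of 133 genes outside the set, of which 90 passed the expression filter. In melanotropes 30 were called higher and 15 lower (limma, adjusted over all genes tested), 50% of those tested, against 36.2% of all 13043 genes, of which 18.7% were called higher and 17.5% lower. The median log2 difference was 0.04, against 0.01 over all genes. The filter lets a gene in through 1 cell type alone. With a filter on the mean level instead, the counts were 23 higher and 14 lower. On the deposited scale they turned to 15 higher and 52 lower. Without melanotrope replicate 1 there were 18 higher, without melanotrope replicate 2 there were 16, and without corticotrope replicate 1 or 2 there were 8 lower.

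Other core proteins went both ways, with 8 of 17 tested called higher and 4 lower, against 18.7% and 17.5% of all genes tested. With a filter on the mean level, 5 were called higher and 3 lower. Dcn (decorin), a small collagen-binding proteoglycan, was at 9.86 and 7.11 FPKM in melanotropes, against 2.43 and 2.94 FPKM in corticotropes (log2 difference 1.35, limma adjusted p = 0.00140). Spock3, a testican, was at 3.74 and 3.61 FPKM in melanotropes, against 1.33 and 1.00 FPKM in corticotropes. Ptprz1, a receptor phosphatase that carries chondroitin sulfate, was lower at 1.75 and 1.88 FPKM in melanotropes, against 22.0 and 14.6 FPKM in corticotropes (log2 difference -2.75). The part of other anterior lobe cells in the Ptprz1 values was not tested. Dcn and Lum are also fibroblast markers, a list whose summed level was 20.7 and 18.1 FPKM in melanotropes and 9.64 and 11.7 FPKM in corticotropes. Of its 10 markers 6 were higher without overlap, 1 lower and 3 overlapping, against 36% higher and 34.4% lower of all genes tested. Only 5 of these 10 were among the genes tested. Without Dcn itself the sum was 10.8 and 11.0 FPKM in melanotropes, against 7.21 and 8.74 FPKM in corticotropes. The part of such cells in the decorin value was not tested.

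**Figure D5:**
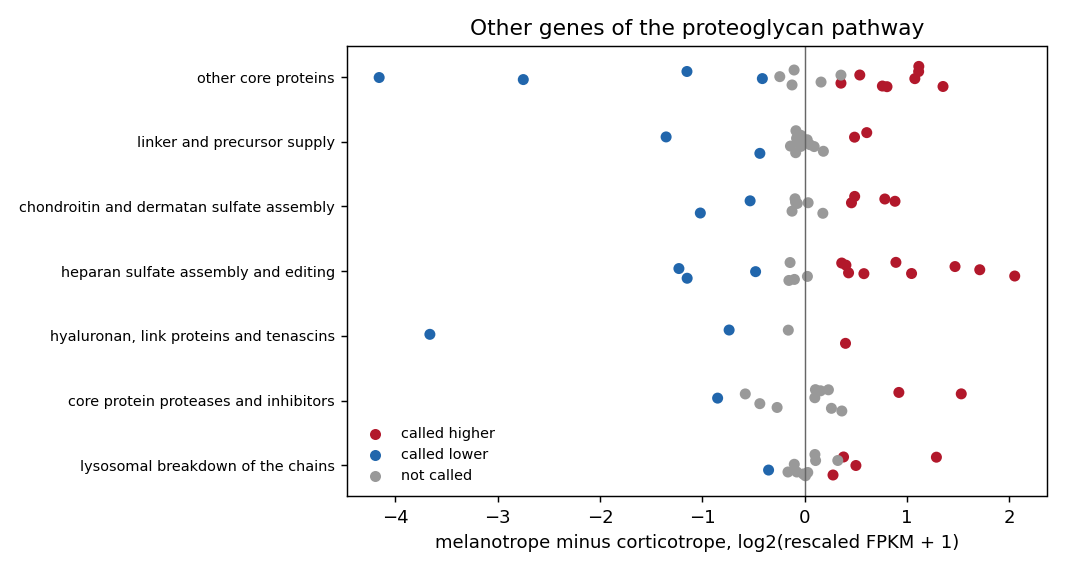
Melanotrope minus corticotrope difference in log2(rescaled FPKM + 1) for each tested gene of 7 pathway lists, members left out (red called higher, blue called lower, grey not called; limma, adjusted over all genes tested; vertical scatter is for display). The heparan sulfate list has 9 genes called higher and 3 lower, against 18.7% and 17.5% of all genes tested. The leftmost point is Gpc5 at -4.16.

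Heparan sulfate chains, which glypicans and syndecans carry, are built by Ext polymerases, sulfated by Ndst and Hs6st enzymes and trimmed of 6-O sulfate outside the cell by Sulf1 and Sulf2. Of 16 tested genes of this list 9 were called higher and 3 lower in melanotropes, with a median log2 difference of 0.38. The shares over all genes tested were 18.7% higher and 17.5% lower. Hs6st3, a 6-O-sulfotransferase, was at 10.02 and 10.15 FPKM in melanotropes, against 1.75 and 1.59 FPKM in corticotropes (log2 difference 2.05, SE 0.09, limma adjusted p = 5.22e-05). Ndst3, an N-deacetylase and N-sulfotransferase, was at 5.24 and 5.87 FPKM in melanotropes, against 0.974 and 1.03 FPKM in corticotropes (log2 difference 1.71). The others called higher were Hs6st2, Ndst4, Extl1, Glce, Ext1, Ext2 and Extl3, so that 2 of 3 Hs6st genes and 2 of 4 Ndst genes were called higher.

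The genes called lower in this list were Hs2st1 and both 6-O-endosulfatases. Sulf1 was at 18.4 and 27.2 FPKM in melanotropes, against 45.9 and 63.2 FPKM in corticotropes (log2 difference -1.23, adjusted p = 0.00676, limma). Sulf2 was at 0.352 and 0.446 FPKM in melanotropes, against 1.95 and 2.26 FPKM in corticotropes (log2 difference -1.15). Hs6st2 and Hs6st3, which add 6-O sulfate, were thus called in the direction opposite to Sulf1 and Sulf2, which remove it. Hs6st1, which also adds it, was not called (limma adjusted p = 0.523) at 8.51 and 9.98 against 9.27 and 10.7 FPKM. Sulfation of the chains was not measured. These calls of Hs6st3, Ndst3, Sulf1 and Sulf2 held under every alternative in which the gene was tested, the deposited scale included. Sulf2 passed the filter only through its corticotrope libraries. It was not tested without either of them, so its call was not tried there. For the list itself, deposited values gave 5 higher and 8 lower, 5 higher without melanotrope replicate 1 and 4 without melanotrope replicate 2.

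Chondroitin and dermatan sulfate, the chains of the brevican family and of endocan, had 4 of 12 tested genes called higher and 2 lower. With a filter on the mean level, 2 were called higher and 2 lower. The shares over all genes tested were 18.7% higher and 17.5% lower in the main fit. Chsy3, a chondroitin synthase, was higher at 3.27 and 4.71 FPKM in melanotropes, against 1.48 and 1.89 FPKM in corticotropes (limma adjusted p = 0.00802), and its relative Chsy1 was lower at 2.67 and 2.81 FPKM in melanotropes, against 4.34 and 4.48 FPKM in corticotropes (limma adjusted p = 0.00498). Chpf2, a polymerizing factor, was called higher at 49.8 and 44.1 FPKM in melanotropes, against 36.7 and 29.9 FPKM in corticotropes, but not under 5 of 14 alternatives (limma adjusted p from 0.000332 to 0.957). Of the linker and precursor genes, which every such chain needs, 2 of 15 were called higher and 2 lower, against the same shares. Ugp2, which makes UDP-glucose, was lower at 11.8 and 11.9 FPKM in melanotropes, against 32.2 and 31.5 FPKM in corticotropes (log2 difference -1.35, limma). B3gat3, which closes the linker, was at 33.0 and 35.5 FPKM in melanotropes, against 24.5 and 23.8 FPKM in corticotropes, and was called higher, but not on the deposited scale (limma adjusted p = 0.888; range 0.000453 to 0.888). Slc26a2, a sulfate transporter, was called higher and the linker kinase gene Fam20b lower, and each call ended under 2 of 14 alternatives.

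The partners that hold brevican, neurocan and versican in a matrix were mostly scarce. Of 15 genes of hyaluronan synthesis, link proteins and tenascins 4 passed the filter, with 1 called higher in melanotropes and 2 lower. The shares over all genes tested were 18.7% higher and 17.5% lower. The gene called higher was Cemip, which takes part in hyaluronan breakdown and was chosen for naming after its values were seen. On the deposited scale, with upper quartile scaling or with a filter on the mean, no gene of this list was called higher. The call of Cemip was also lost whenever a library was left out. Tnr, tenascin-R, which binds the lectin domain of these proteoglycans, was at 0.476 and 0.558 FPKM in melanotropes, against 22.1 and 14.96 FPKM in corticotropes (log2 difference -3.66, SE 0.18, limma adjusted p = 6.68e-05). Tnr passed the filter only through its corticotrope libraries and was not tested without either of them. Markers of other anterior lobe hormone cells summed to 14.5 and 63.6 FPKM in melanotropes, against 5809 and 5660 FPKM in corticotropes. The part of such cells in the Tnr values was not tested. Tmem2, a cell surface hyaluronidase in mouse, was lower at 8.22 and 9.53 FPKM in melanotropes, against 14.3 and 16.6 FPKM in corticotropes. Each link protein gene lies next to a core protein gene, Hapln2 at 21.4 kb from Bcan, Hapln4 at 2.22 kb from Ncan and Hapln1 at 43.5 kb from Vcan. None of these neighbours passed the filter. Hapln2 was at 0.227 and 0.198 FPKM in melanotropes, against 0.115 and 0.104 FPKM in corticotropes. The neighbour of Bcan was thus higher in melanotropes without overlap, like Bcan, but at a low level beside Bcan's 11.1 and 9.03 FPKM. Hapln1, the neighbour of Vcan, was lower without overlap, at 0.0454 and 0.0372 FPKM in melanotropes, against 0.270 and 0.235 FPKM in corticotropes. Hapln4, the neighbour of Ncan, overlapped at 0.227 and 0.136 against 0.311 and 0.200 FPKM. The genes tested, which leave these neighbours out, were 36% higher and 34.4% lower without overlap.

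Of 12 tested proteases of core proteins and their inhibitors 2 were called higher and 1, the gelatinase gene Mmp2, lower. The shares over all genes tested were 18.7% higher and 17.5% lower. Timp2, a metalloproteinase inhibitor, was at 21.8 and 23.2 FPKM in melanotropes, against 6.99 and 7.30 FPKM in corticotropes (log2 difference 1.53, limma adjusted p = 8.97e-05), and Adamts1, which cleaves versican, was at 3.05 and 3.10 FPKM in melanotropes, against 0.917 and 1.42 FPKM in corticotropes. Of 14 lysosomal genes 4 were called higher and 1 lower, against the same 18.7% and 17.5% of all genes tested. Hexa, a lysosomal hexosaminidase gene, was called higher and Gusb, the gene of beta-glucuronidase, lower, but Hexa was not called under 3 and Gusb under 4 of 14 alternatives (limma).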

How the data were processed

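Total RNA depleted of ribosomal RNA was sequenced as 50 bp read pairs on an Illumina HiSeq, per the labels' protocols. The deposited table holds FPKM per RefSeq transcript made with HOMER, per the file headers, and the authors' log2 fold changes with p-values and FDR. The deposited fold change column, which the authors wrote as a score equal to 10 to the power of the log2 value, was not used. TopHat, HOMER, edgeR and GRCm38 (mm10) are named in the submitters' processing notes. Neither tool versions nor the strand setting were given in the sources used here. Deposited FPKM, as the authors scaled them, sum to nearly the same total in each library.

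The longest transcript stood for a gene. FPKM was rescaled between libraries by trimmed means of log ratios without weights (30% of ratios and 5% of levels trimmed), giving factors of 0.882 and 0.807 for melanotropes and 1.22 and 1.15 for corticotropes. Values were tested as log2(FPKM + 1) with limma 3.58.1 (R 4.3.3), all 4 libraries in the fit, with a trended prior variance, 2 residual and 4.02 prior degrees of freedom. Genes with at least 1 FPKM in 2 libraries were tested (13043), with Benjamini-Hochberg adjustment over all of them and a threshold of 0.05. Fold changes on this scale understate the change of low genes, and members' SE come from their own 4 values. In simulated data for 13043 genes, 91% of 100 genes with a simulated log2 change of 1 and 100% of 100 with a change of 2 were recovered, with 3 false calls. The changes were placed only in genes at a higher level than the filter asks for, and in fewer genes than were called in the data. The noise was drawn from the fit's own prior variance. Recovery of scarcer genes was therefore not measured. Depth was read from low values, which were whole multiples of the value of 1 read in 100% of 345 to 453 cases a library (tolerance 0.1 reads); reads per unit were 1.90 and 2.04 in melanotropes and 1.0 and 2.00 in corticotropes, relative to corticotrope replicate 1. A transcript's estimated reads were its FPKM times length divided by that step.

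The members, lists and markers were chosen with earlier results of these data known. Beside members and markers, the text names up to 2 called genes per list and direction, with the largest differences among those at 2 FPKM or more in the higher cell type and not overlapping, and the 4 genes with profiles nearest to Bcan and to Esm1. A gene that this rule names is not reported here. Hs6st2, Ndst4, Extl1, Glce, Ext1, Ext2, Extl3, Hs2st1, Hs6st1, Mmp2, Cemip, Gpc2, Sdc1, Sdc4 and the Hapln genes were named outside this rule, after their values were seen. Versican ratios were compared by exact permutation (scipy 1.17.1). Promoters are from RefSeq and exons from GENCODE M21. There were 14 alternative settings.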

Additional observations from a re-analysis of the deposited data

How the results depend on the processing

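The sign of the difference held under all 14 alternatives for 9 of 10 members; for Sdc3 it turned on the deposited scale and without melanotrope replicate 2 or corticotrope replicate 1 (range -0.244 to 0.145). Between pseudocounts of 5 and 0.1 the difference ran between 1.40 and 3.71 for Bcan and between -0.48 and -2.46 for Gpc6, while for Esm1 (1.74), Gpc1 (-1.41), Sdc2 (-1.26) and Sdc3 the deposited scale moved it further than either pseudocount. With deposited values, limma called 939 genes higher and 8787 lower, and 15 and 52 of the pathway lists, with the median of all genes at -0.42. Leaving out 1 library gave 1416 to 2041 genes higher and 1387 to 1796 lower, and 16 to 26 and 8 to 16 in the pathway lists. The lowest counts came without melanotrope replicate 2 (1416 higher) and without corticotrope replicate 2 (1387 lower), and 1509 were lower without corticotrope replicate 1. A lone library in these fits is assumed to vary like the other cell type. With the replicate number as a block, 3656 genes were called higher and 3350 lower, and 35 and 19 in the pathway lists; the proteases list had 5 higher and 4 lower. The labels do not say that a number marks a shared day or animal, and deviations of same-numbered libraries correlated at 0.526 across genes. Rounding of FPKM allows a melanotrope Vcan beta to alpha ratio of 1.17 to 1.35, and single libraries gave 1.202 to 1.31 in melanotropes and 1.17 to 1.63 in corticotropes. With 2 libraries a cell type and unknown origin of replicates, small differences of scarce genes such as Ncan and Vcan were not resolved.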
